A study of Mus musculus with 9 samples.

Results

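Cux1, Cux2, Pou3f1, Pou3f2, Pou3f3, Rorb, Mef2c and Limch1 are determinants and markers of the upper-layer neurons of the cerebral cortex. The 8 genes were taken by symbol from a table of 53379 gene IDs, and each matched 1 ID. All 8 had enough reads to be among the 17760 genes tested. GFP+ cells from the cortex of C57BL/6 mouse embryos were profiled by RNA sequencing. Short hairpin RNAs (shRNAs) were electroporated in utero at E13.5, and the cortex was collected 48 hours later, at E15.5. The circSlc45a4 knockdown received 3 shRNAs against the circular RNA circSlc45a4, the Slc45a4 mRNA knockdown (mRNA knockdown below) received 2 shRNAs against the linear mRNA of the same gene, and scramble received 1 scrambled shRNA. Each group has 3 libraries. Every library, scramble included, comes from electroporated cells sorted for GFP by flow cytometry, extracted with Trizol and selected for polyA RNA. The sample is a mixture of the cell types that electroporation reached, and polyA selection does not retain a circular RNA, so circSlc45a4 itself has no value here.

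Upper-layer neurons are the late-born excitatory neurons that lie nearest the surface of the cortex and connect mainly to other cortical areas. Cux1 and Cux2 are CUT homeodomain transcription factors that shape the dendrites, spines and synapses of these neurons. Pou3f2 (Brn2) and Pou3f3 (Brn1) are POU homeodomain transcription factors needed together, in the mouse, for the production and migration of upper-layer neurons, and Pou3f1 (Oct6, SCIP) is another member of their class with overlapping functions. Cux2 and the Pou3f genes are also transcribed in cortical progenitors, so that their RNA in a mixed sample does not count the neurons of a layer.

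The 3 Pou3f genes resemble each other closely enough that reads could in principle be assigned to the wrong paralog. The most alike 120 bases of their coding sequences, within the POU-specific domain, are shown for that reason, 5′ to 3′ on the coding strand (GRCm38). Capitals mark the bases that differ from Pou3f2.
Pou3f1: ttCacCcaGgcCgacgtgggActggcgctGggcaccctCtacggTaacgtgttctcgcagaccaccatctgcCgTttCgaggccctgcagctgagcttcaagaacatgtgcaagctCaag
Pou3f2: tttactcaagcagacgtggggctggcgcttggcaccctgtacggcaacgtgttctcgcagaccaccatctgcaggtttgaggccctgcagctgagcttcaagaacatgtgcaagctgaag
Pou3f3: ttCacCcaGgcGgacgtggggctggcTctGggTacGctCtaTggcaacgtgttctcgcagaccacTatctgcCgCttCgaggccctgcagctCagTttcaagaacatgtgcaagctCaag
The Pou3f1 stretch lies at chr4:124658511-124658630 on the plus strand and matches Pou3f2 at 108 of 120 positions (90.0%). The Pou3f2 stretch lies at chr4:22487151-22487270 on the minus strand. The Pou3f3 stretch lies at chr1:42698148-42698267 on the plus strand and matches Pou3f2 at 103 positions (85.8%). Over whole transcripts, the longest exact run shared by a pair was 38 bases for Pou3f1 and Pou3f2, 29 for Pou3f1 and Pou3f3, and 23 for Pou3f2 and Pou3f3. Cux1 and Cux2 shared at most 23 bases. None of the 8 genes shared a run of 50 bases with another of the 8 or with any of the 20 listed paralogs. Read length and the strand setting of the counting are unstated in the sources used here.

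Slc45a4, the gene whose linear and circular RNAs were targeted, checks the labels. It was read at 25.4, 25.3 and 24.7 CPM (each count relative to the scaled total of its library) in libraries 1, 2 and 3 of the circSlc45a4 knockdown, at 13.3, 18.5 and 17.4 CPM in the mRNA knockdown and at 31.4, 33.6 and 33.96 CPM in scramble. The 3 groups did not overlap, and the lowest values were those of the mRNA knockdown (log2 fold change against scramble -1.01 ± 0.12 SE, adjusted p = 1.08e-04). The circSlc45a4 knockdown was also lower than scramble at an adjusted p under 0.05 (-0.39, edgeR quasi-likelihood test). That call was lost with Xist, described below, as a covariate (-0.22, adjusted p = 0.594). It was also lost without any 1 of the circSlc45a4 knockdown libraries or scramble library 2 or 3 (-0.40 to -0.37, adjusted p = 0.0659 to 0.0866). Libraries held 21073174 to 45469298 counts, with the shallowest in scramble. Xist, transcribed from the inactive X, ranged from 264 to 635 CPM in the circSlc45a4 knockdown and from 0.0617 to 0.239 CPM in scramble. Libraries 1, 2 and 3 of the mRNA knockdown had 1550, 637 and 0.194 CPM of Xist. Ddx3y, a gene of the Y chromosome, ranged from 20.0 to 37.1 CPM in circSlc45a4 knockdown libraries and from 28.3 to 41.6 CPM in scramble ones. Its mRNA knockdown levels were 0, 21.9 and 39.1 CPM. Every circSlc45a4 knockdown library thus held RNA of both sexes, as did mRNA knockdown library 2. Library 1 of the mRNA knockdown read as female, and its library 3 as male, like scramble. The sex of the embryos therefore differed between libraries and groups. The part of sex in the results below was not tested beyond a fit with the Xist level as a covariate, and calls that this fit ends are named beside their values.

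The first comparison sets the circSlc45a4 knockdown against scramble. Of the 8 genes, Cux1, Cux2, Pou3f1 and Pou3f3 fell, Limch1 rose, and Pou3f2, Rorb and Mef2c did not pass the threshold of an adjusted p under 0.05 (edgeR quasi-likelihood test). Among all genes tested, 27.1% were called in either direction, 14.1% higher and 13.0% lower, against 5 of the 8. The median log2 fold change was -0.40 over the 8 genes and -0.01 over all genes tested. For 4 of the 8, Cux2, Pou3f1, Pou3f3 and Limch1, the libraries of the 2 groups did not overlap (3 lower, 1 higher), against 43.9% of all genes tested, 21.3% lower and 22.6% higher. In bulk RNA, fewer cells of a type and less RNA per cell cannot be told apart, and this holds for every change given here. The p-values measure the spread between libraries labelled as replicates of 1 group, 3 per group.

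**Figure D1:**
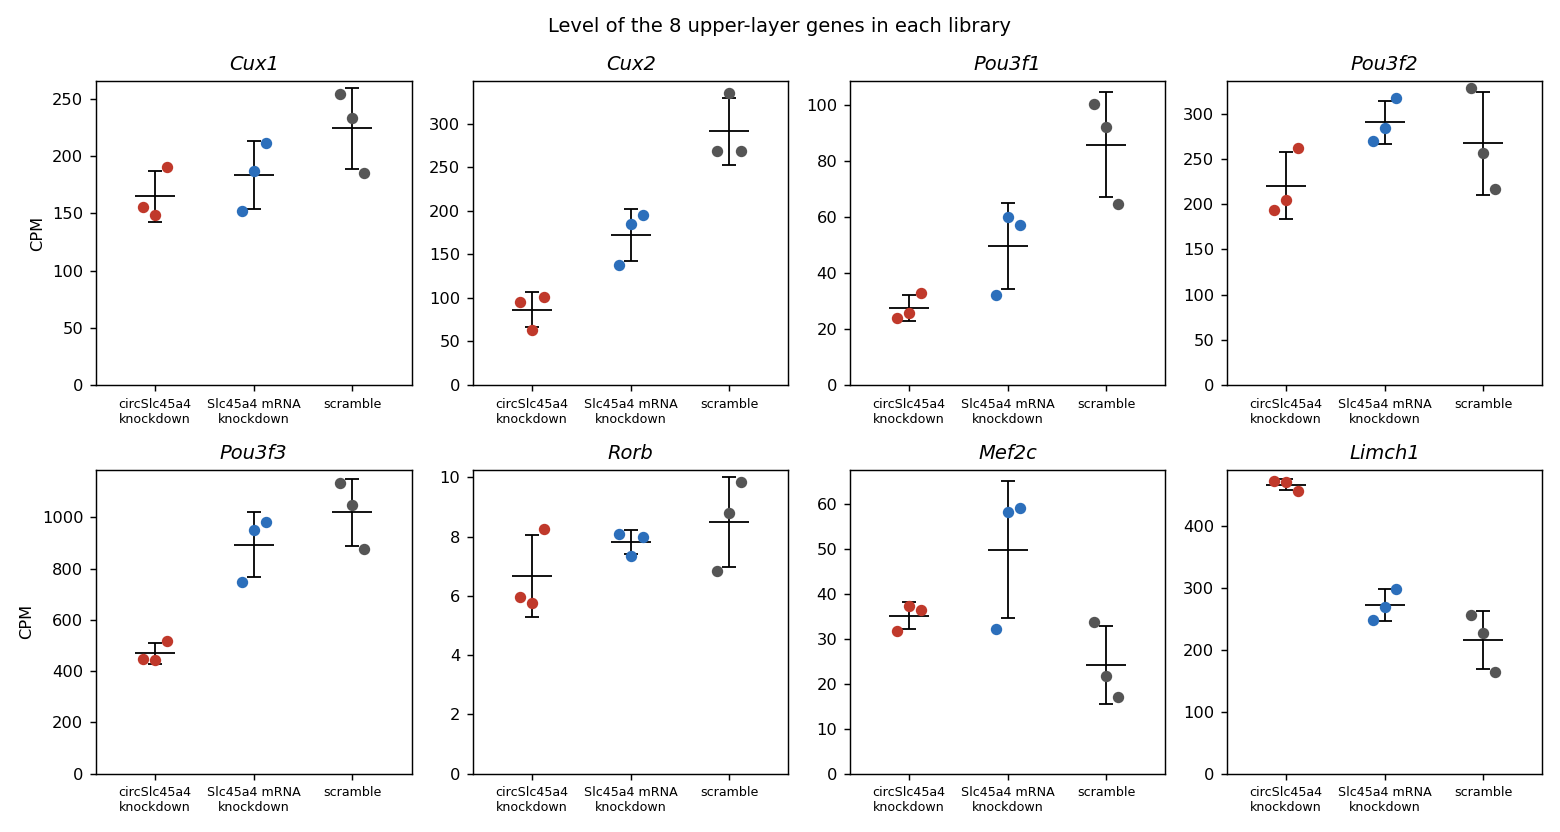
Levels of the 8 upper-layer genes in CPM, with the circSlc45a4 knockdown, the mRNA knockdown and scramble from left to right in each panel. Dots are libraries and the bar with its whiskers is the mean ± SD of 3; Cux2 shows 3 separate groups with the circSlc45a4 knockdown lowest (63.2 to 101 CPM), while Limch1 is highest there (457 to 472 CPM).

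Cux2 (ENSMUSG00000042589.18, chr5:121856366-122050102, minus strand, GRCm38) showed the largest fall of the 8 in this comparison. Its level was 95.7, 63.2 and 101 CPM in the circSlc45a4 knockdown, 138, 185 and 195 CPM in the mRNA knockdown and 269, 336 and 269 CPM in scramble. Every library of the circSlc45a4 knockdown lay below every library of the mRNA knockdown, and those in turn lay below every scramble library. The mean was 86.5 ± 20.3 CPM in the circSlc45a4 knockdown and 291 ± 38.2 CPM in scramble (SD, n = 3 each). The log2 fold change was -1.75 ± 0.17 (SE; 95% interval -2.12 to -1.38; adjusted p = 1.05e-05), a level 0.297 times that of scramble. The call held under every alternative run.

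Cux1 (ENSMUSG00000029705.17, chr5:136248135-136567490, minus strand), the paralog with the broader expression of the pair, changed less. Its level was 156, 148 and 190.3 CPM in the circSlc45a4 knockdown, 152, 187 and 212 CPM in the mRNA knockdown and 255, 233 and 185 CPM in scramble. The highest circSlc45a4 knockdown library reached into the scramble range, so the groups overlapped. The log2 fold change was -0.44 ± 0.14 (95% interval -0.74 to -0.15; adjusted p = 0.0299). This call rests on few libraries. It was lost without circSlc45a4 knockdown library 1 (-0.41, adjusted p = 0.105) or 2 (-0.37, 0.126), without scramble library 1 (-0.34, 0.118) or 2 (-0.41, 0.0988), and with the Xist covariate (-0.17, 0.722), and the adjusted p spanned 4.47e-05 to 0.722 across the alternatives.

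In the second comparison, the mRNA knockdown against scramble, 3 of the 8 genes were called: Cux2 and Pou3f1 fell and Mef2c rose. The background was 18.0% of all genes tested, 8.92% higher and 9.09% lower. The median log2 fold change was -0.16 over the 8 genes and 0.01 over all genes. Cux2 averaged 173 ± 30.2 CPM in the mRNA knockdown and 291 ± 38.2 CPM in scramble, a log2 fold change of -0.76 ± 0.17 (95% interval -1.11 to -0.40; adjusted p = 0.00686). With the Xist covariate it was not called (-0.56, adjusted p = 0.275), and the adjusted p spanned 1.64e-13 to 0.275 across the alternatives. Cux1 had a log2 fold change of -0.29 ± 0.14 (95% interval -0.58 to 0.01; adjusted p = 0.170), with overlapping groups. The groups were separate for 2 of the 8, Cux2 and Pou3f1, both lower, against 36.1% of all genes, 18.4% lower and 17.7% higher.

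The third comparison sets the circSlc45a4 knockdown directly against the mRNA knockdown. Here 4 of the 8 genes were called: Cux2, Pou3f1 and Pou3f3 were lower in the circSlc45a4 knockdown and Limch1 was higher. The background was 26.1% of all genes tested, 13.8% higher and 12.3% lower, and the median log2 fold change was -0.45 over the 8 genes and -0.02 over all genes. With upper-quartile scaling, 42.1% of all called genes were higher, against 52.8% with the scaling used here. Cux2 was lower by a log2 fold change of -0.99 ± 0.17 (95% interval -1.35 to -0.63; adjusted p = 8.75e-04), a level 0.502 times that of the mRNA knockdown. Cux1 differed by -0.16 ± 0.14 (95% interval -0.45 to 0.14; adjusted p = 0.450). The groups were separate for 4 of the 8, Cux2, Pou3f2, Pou3f3 and Limch1 (3 lower, 1 higher), against 40.1% of all genes, 19.8% lower and 20.3% higher. The comparisons share libraries pair by pair, so their values for a gene are not independent.

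**Figure D2:**
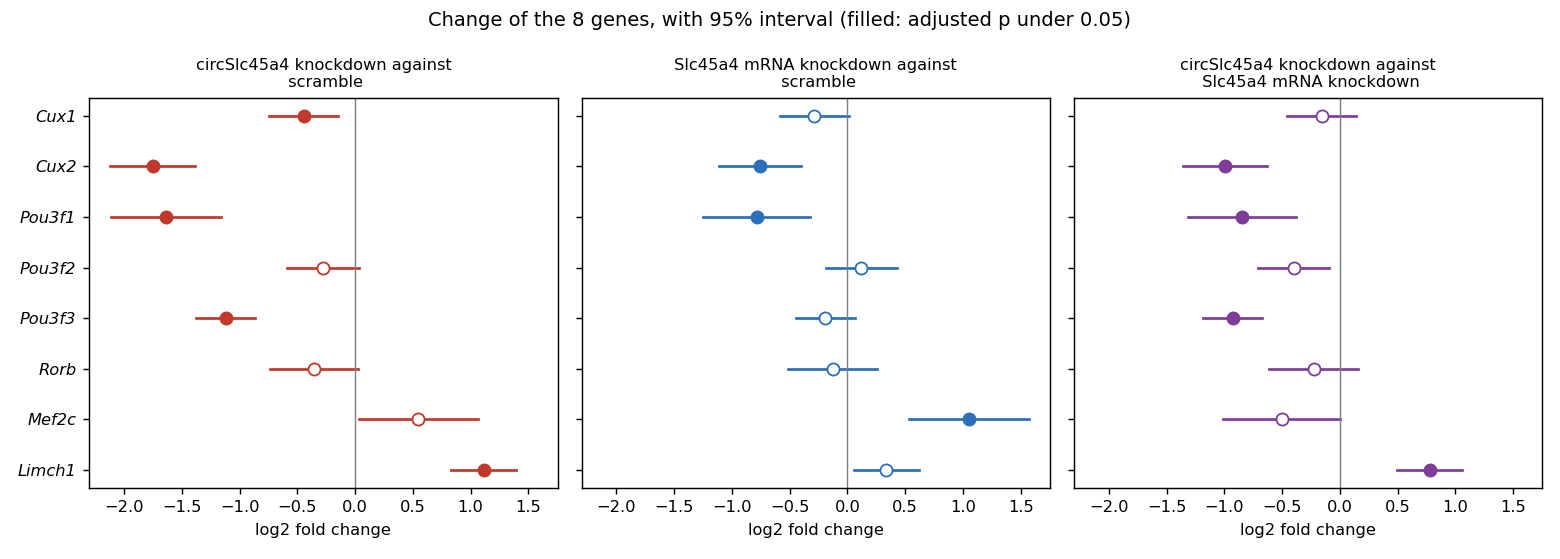
Log2 fold changes of the 8 genes in the 3 comparisons, with 95% intervals from the edgeR fit; filled points have an adjusted p under 0.05. Cux2 lies below 0 in all 3 comparisons, Pou3f2 has an interval that reaches 0 in both comparisons with scramble, and Limch1 and Mef2c lie above 0 against scramble.

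The ratio of Cux2 to Cux1 reads within a library does not depend on how libraries are scaled. Its log2 was -0.71, -1.23 and -0.92 in the circSlc45a4 knockdown, -0.14, -0.02 and -0.12 in the mRNA knockdown and 0.08, 0.52 and 0.54 in scramble. The groups formed 3 separate bands: Cux2 had more reads than Cux1 in every scramble library and fewer in every knockdown library. The ratio differed from scramble by -1.33 in the circSlc45a4 knockdown and by -0.48 in the mRNA knockdown, and the knockdowns differed by -0.86. Each of these differences had p = 0.1 in an exact 2-sided permutation test, the smallest p that 3 libraries against 3 allow (0.12 adjusted over the 12 ratio comparisons). Per base of exon, Cux2 made up 50.7% ± 4.6 of the summed Cux1 and Cux2 level in the circSlc45a4 knockdown, 65.0% ± 1.0 in the mRNA knockdown and 72.0% ± 3.7 in scramble (SD, n = 3 each). The summed reads of the pair were 251.5 ± 39.6 CPM in the circSlc45a4 knockdown, 356 ± 59.5 CPM in the mRNA knockdown and 516 ± 57.5 CPM in scramble.

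Among the Pou3f genes, Pou3f3 (ENSMUSG00000045515.3, chr1:42695768-42703176, plus strand, a gene of 1 exon) was the most abundant. It was read at 446, 445 and 518 CPM in the circSlc45a4 knockdown, at 747, 951 and 981 CPM in the mRNA knockdown and at 1133, 1047 and 877 CPM in scramble. The circSlc45a4 knockdown lay below both other groups, and those 2 overlapped. The log2 fold change of the circSlc45a4 knockdown was -1.12 ± 0.12 against scramble (95% interval -1.37 to -0.86; adjusted p = 2.20e-05), a level 0.461 times that of scramble. Against the mRNA knockdown it was -0.93 ± 0.12 (95% interval -1.18 to -0.67; adjusted p = 1.29e-04). Both calls held under every alternative run. The mRNA knockdown differed from scramble by -0.19 ± 0.12 (95% interval -0.44 to 0.06; adjusted p = 0.288), an interval that does not reach the -1.12 of the circSlc45a4 knockdown.

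Pou3f1 (ENSMUSG00000090125.3, chr4:124656807-124660655, plus strand, 1 exon) was read at 23.9, 25.6 and 32.9 CPM in the circSlc45a4 knockdown, at 32.0, 59.8 and 56.9 CPM in the mRNA knockdown and at 100.3, 92.1 and 64.6 CPM in scramble. All scramble libraries lay above all knockdown libraries, and library 1 of the mRNA knockdown lay inside the range of the circSlc45a4 knockdown. The log2 fold change was -1.64 ± 0.22 for the circSlc45a4 knockdown against scramble (95% interval -2.11 to -1.16; adjusted p = 1.33e-04). For the mRNA knockdown against scramble it was -0.79 ± 0.21 (95% interval -1.25 to -0.33; adjusted p = 0.0224), and between the knockdowns it was -0.85 ± 0.22 (95% interval -1.32 to -0.38; adjusted p = 0.0116).

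The Pou3f1 calls depend on single libraries more than those of Cux2 and Pou3f3. Against scramble, the call in the mRNA knockdown was lost without scramble library 1 (-0.66, adjusted p = 0.0818) or 2 (-0.73, 0.0881) and with the Xist covariate (-0.56, 0.419), with a range of 7.09e-12 to 0.419 over all alternatives. The call in the circSlc45a4 knockdown was lost with the Xist covariate (-1.33, 0.0578, range 2.73e-49 to 0.0578) and under no other alternative. The difference between the knockdowns was lost without circSlc45a4 knockdown library 1 (-0.75, 0.0612) or 2 (-0.79, 0.0554) or mRNA knockdown library 2 (-0.69, 0.0525), with a range of 9.40e-14 to 0.0612. Pou3f1 also shares its locus with the antisense transcript Gm2164, which overlaps 330 exon bases of Pou3f1. Gm2164 had 384 reads in all 9 libraries, against 3483 reads of Pou3f1 in the circSlc45a4 knockdown, 5420 in the mRNA knockdown and 7032 in scramble. As the strand setting is unstated, reads in the shared stretch cannot be assigned to either gene.

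Pou3f2 (ENSMUSG00000095139.2, chr4:22482780-22488366, minus strand, 1 exon) did not pass the threshold in any comparison. The gene was read at 194, 204 and 263 CPM in the circSlc45a4 knockdown, at 270.0, 285 and 317 CPM in the mRNA knockdown and at 329, 256 and 216 CPM in scramble. The circSlc45a4 knockdown lay below the mRNA knockdown without overlap, and the scramble libraries spread across both. Against scramble the log2 fold change was -0.28 ± 0.14 in the circSlc45a4 knockdown (95% interval -0.59 to 0.03; adjusted p = 0.175) and 0.12 ± 0.14 in the mRNA knockdown (95% interval -0.19 to 0.43; adjusted p = 0.605). The knockdowns differed by -0.40 ± 0.14 (95% interval -0.71 to -0.09; adjusted p = 0.0567). That last difference sits at the threshold and was called under 5 alternatives of scaling, tool, filter or library set, among them upper-quartile scaling (-0.45, adjusted p = 0.0327). It was also called without circSlc45a4 knockdown library 3 (-0.55, 0.0180) or scramble library 1 (-0.40, 0.0260) or 3 (-0.40, 0.0349), with a range of 3.10e-04 to 0.224 over all alternatives.

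Within the family, the ratios between paralogs differed by group. The log2 ratio of Pou3f3 to Pou3f2 reads was 1.20, 1.12 and 0.98 in the circSlc45a4 knockdown, 1.47, 1.74 and 1.63 in the mRNA knockdown and 1.78, 2.03 and 2.02 in scramble. These are again 3 separate bands, with differences from scramble of -0.84 in the circSlc45a4 knockdown and -0.33 in the mRNA knockdown, and of -0.51 between the knockdowns. The log2 ratio of Pou3f1 to Pou3f2 was -3.02, -2.99 and -3.00 in the circSlc45a4 knockdown, -3.08, -2.25 and -2.48 in the mRNA knockdown and -1.71, -1.48 and -1.74 in scramble. The circSlc45a4 knockdown differed from scramble by -1.36 and the mRNA knockdown by -0.96. Library 1 of the mRNA knockdown lay at the level of the circSlc45a4 knockdown, so the knockdowns overlapped (exact permutation p = 0.4, adjusted p = 0.436).

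Pou3f1 and Pou3f3, the members that fell together in the circSlc45a4 knockdown, had a log2 read ratio of -4.22, -4.12 and -3.97 there, -4.55, -3.99 and -4.11 in the mRNA knockdown and -3.50, -3.51 and -3.76 in scramble. Both lay below all scramble libraries, by -0.51 for the circSlc45a4 knockdown and -0.63 for the mRNA knockdown, and the knockdowns overlapped each other with a difference of 0.11 (exact permutation p = 0.7, adjusted p = 0.7). Each of the Pou3f ratio differences without overlap had an exact 2-sided permutation p of 0.1, or 0.12 adjusted over the 12 ratio comparisons. Leaving out single libraries turned the sign of the difference in Pou3f1 over Pou3f3 between the knockdowns, which was -0.06 without mRNA knockdown library 1 and 0.22 without its library 2. The difference in Pou3f1 over Pou3f2 between the knockdowns, -0.40 with all libraries, was -0.64 without mRNA knockdown library 1 and -0.22 without its library 2. The other 10 differences kept their sign without any 1 library. Per base of exon, Pou3f2 made up 35.7% ± 1.6 of the summed level of the 3 genes in the circSlc45a4 knockdown, 28.2% ± 2.3 in the mRNA knockdown and 22.9% ± 1.6 in scramble (SD, n = 3 each). The share of Pou3f3 was 57.8% ± 1.9 in the circSlc45a4 knockdown, 64.9% ± 0.9 in the mRNA knockdown and 66.4% ± 1.9 in scramble. Pou3f1 made up 6.48% ± 0.34 in the circSlc45a4 knockdown, 6.84% ± 1.40 in the mRNA knockdown and 10.65% ± 0.88 in scramble. The share of Pou3f2 was thus highest, and that of Pou3f3 lowest, where the family total was lowest. The summed reads of the 3 genes were 717 ± 83.2 CPM in the circSlc45a4 knockdown, 1233 ± 162 CPM in the mRNA knockdown and 1372 ± 203 CPM in scramble.

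**Figure D3:**
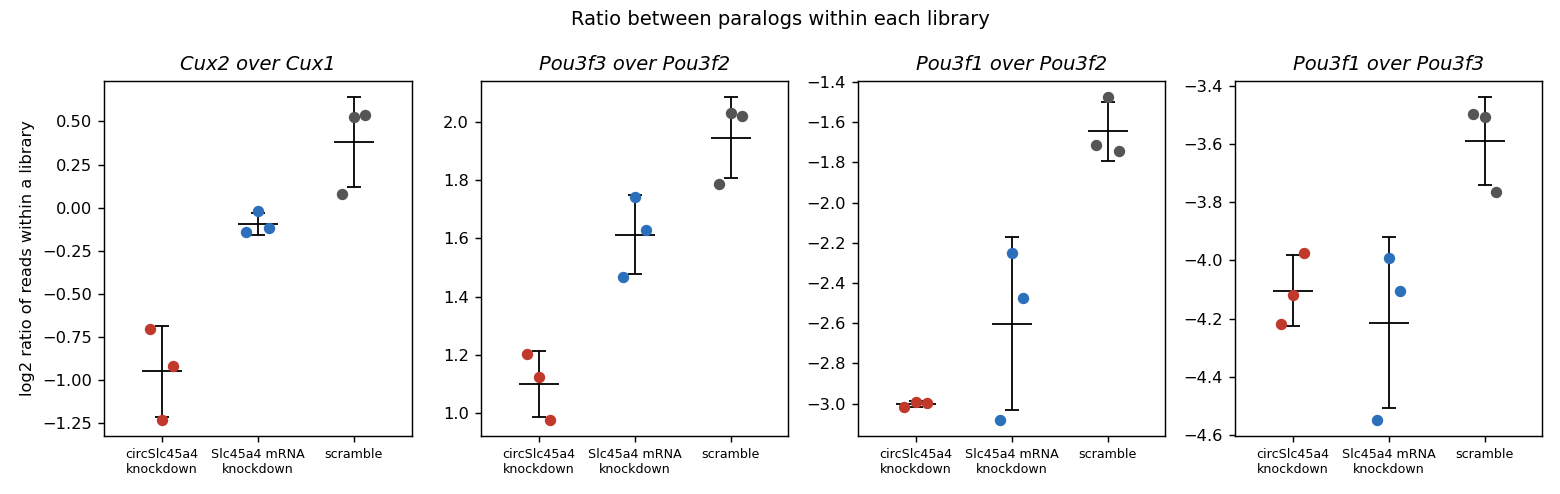
Log2 ratios of paralog reads in each library, with the circSlc45a4 knockdown, the mRNA knockdown and scramble from left to right; the bar with its whiskers is the mean ± SD of 3 libraries. Cux2 over Cux1 and Pou3f3 over Pou3f2 form 3 separate bands with the circSlc45a4 knockdown lowest, while the knockdowns overlap in both ratios of Pou3f1.

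Pou3f4, the remaining gene of the class, is X-linked and known for its role in the inner ear, where loss of the human gene causes deafness. Per kilobase of exon its mean level was 3.96 CPM in the circSlc45a4 knockdown, 8.20 CPM in the mRNA knockdown and 10.5 CPM in scramble, below that of Pou3f1 in each group. It was read at 11.7, 9.27 and 13.9 CPM in the circSlc45a4 knockdown, at 25.7, 23.1 and 23.2 CPM in the mRNA knockdown and 24.1, 33.7 and 34.3 CPM in scramble. The circSlc45a4 knockdown lay below both other groups, with a log2 fold change of -1.40 ± 0.16 against scramble (adjusted p = 3.81e-05) and -1.05 ± 0.16 against the mRNA knockdown (adjusted p = 4.48e-04). The mRNA knockdown against scramble gave -0.36 ± 0.16 (adjusted p = 0.131). Both calls held under every alternative, the Xist covariate included. Against scramble, that covariate cannot separate sex from the shRNA in the circSlc45a4 knockdown.

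Noncoding genes beside Pou3f3 and Pou3f1 were read as well. Pantr1, a long noncoding RNA transcribed on the opposite strand beside Pou3f3 with no shared exon base, was read at 109, 139 and 147 CPM in the circSlc45a4 knockdown, at 201, 191 and 184 CPM in the mRNA knockdown and 282, 227 and 192 CPM in scramble. The circSlc45a4 knockdown was lower than scramble (-0.83 ± 0.13, adjusted p = 5.74e-04) and lower than the mRNA knockdown (-0.54 ± 0.13, adjusted p = 0.00954). The second call was lost without circSlc45a4 knockdown library 1 (-0.41, adjusted p = 0.0503, range over alternatives 3.02e-07 to 0.0503). Pantr2, a second transcript on that side, had 5.19 to 7.22 CPM in the circSlc45a4 knockdown and 7.94 to 10.5 CPM in scramble and missed the threshold (-0.51 ± 0.18, adjusted p = 0.0537). Gm2164, the antisense transcript of Pou3f1, had 0.447, 0.137 and 0.648 CPM in the circSlc45a4 knockdown and 1.67, 2.07 and 1.45 CPM in scramble, a log2 fold change of -2.04 ± 0.46 (adjusted p = 0.00481). With the Xist covariate it was not called (-1.56, adjusted p = 0.270, range 1.09e-05 to 0.270). AC122898.1, which overlaps the Pou3f3 locus without sharing exon bases, had 508 reads in all 9 libraries (-0.94, adjusted p = 0.0662), and Gm16599, antisense to Cux1, had 9 reads and was not tested.

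Cux2 and Pou3f3 are the members whose fall in the circSlc45a4 knockdown held throughout, and the 250 bases before their RefSeq starts are shown to give the sequence context of that pair (RefSeq, GRCm38.p6, 5′ to 3′ on the strand of the gene). Capitals mark the CG dinucleotides.
Cux2: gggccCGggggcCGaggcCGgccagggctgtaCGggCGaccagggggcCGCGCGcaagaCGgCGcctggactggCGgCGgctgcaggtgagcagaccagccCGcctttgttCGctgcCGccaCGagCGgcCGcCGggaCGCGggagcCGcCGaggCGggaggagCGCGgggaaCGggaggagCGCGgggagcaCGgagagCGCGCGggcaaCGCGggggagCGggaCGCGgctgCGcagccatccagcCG
Pou3f3: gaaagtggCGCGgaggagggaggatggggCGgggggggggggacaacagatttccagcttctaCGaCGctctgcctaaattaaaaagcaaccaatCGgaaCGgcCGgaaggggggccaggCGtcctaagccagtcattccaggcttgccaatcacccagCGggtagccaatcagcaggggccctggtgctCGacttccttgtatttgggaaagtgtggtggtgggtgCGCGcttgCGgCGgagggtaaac
The Cux2 stretch lies at chr5:122049852-122050101 on the minus strand and holds 40 CG dinucleotides, and the Pou3f3 stretch lies at chr1:42695518-42695767 on the plus strand and holds 15. The RefSeq start of Cux2 lies inside the gene span given above from GENCODE M21, so the Cux2 stretch falls within that span. Over the 300 bases of the promoter window, which adds the first bases after the start, Cux2 had 80.3% G and C and more CG dinucleotides than 98.8% of the 32851 promoters in the table. Pou3f3 had 60.3% G and C and more than 70.3% of them, against a median of 52.7% G and C. The octamer ATGCAAAT bound by POU factors occurs on either strand in 1.74% of these promoters, the Cux core ATCGAT in 0.925% and TATAAA in 13.6%. None of the 3 motifs occurs in these windows of Pou3f3 and of the first Cux2 promoter, while a second annotated Cux2 promoter holds ATCGAT and TATAAA. These are matches of letters within a window and say nothing of binding.

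Limch1 (ENSMUSG00000037736.18, chr5:66745827-67057158, plus strand) moved the other way from Cux2, Pou3f1 and Pou3f3. It encodes a LIM and calponin homology domain protein that activates nonmuscle myosin II in human cells. It was read at 472, 471 and 457 CPM in the circSlc45a4 knockdown, at 248, 270.1 and 299 CPM in the mRNA knockdown and at 257, 228 and 164 CPM in scramble. The circSlc45a4 knockdown lay above all other libraries and varied little among its own 3. Its log2 fold change was 1.11 ± 0.13 against scramble (95% interval 0.83 to 1.40; adjusted p = 5.13e-05), a level 2.16 times that of scramble. Against the mRNA knockdown it was 0.78 ± 0.13 (adjusted p = 8.82e-04), a level 1.71 times as high. Both calls held under every alternative run. The mRNA knockdown against scramble gave 0.34 ± 0.13 (95% interval 0.05 to 0.62; adjusted p = 0.0928), a value called without scramble library 1 (0.48, 0.0271, range 0.00453 to 0.294).

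Mef2c (ENSMUSG00000005583.16, chr13:83504034-83667080, plus strand) encodes a MADS box transcription factor that acts in neuronal differentiation and in the activity-dependent control of synapse number. It was read at 31.6, 37.2 and 36.5 CPM in the circSlc45a4 knockdown, at 32.1, 58.15 and 59.1 CPM in the mRNA knockdown and at 33.7, 21.7 and 17.1 CPM in scramble. Scramble library 1 lay inside the range of both knockdowns, and mRNA knockdown library 1 inside that of the circSlc45a4 knockdown, so no pair of groups was separate. The mRNA knockdown was higher than scramble by a log2 fold change of 1.05 ± 0.24 (95% interval 0.54 to 1.57; adjusted p = 0.00861), a level 2.07 times that of scramble, and this call held under every alternative. The circSlc45a4 knockdown gave 0.55 ± 0.24 (95% interval 0.03 to 1.06; adjusted p = 0.108). That value was called without scramble library 1 (0.86, adjusted p = 0.0158) and without mRNA knockdown library 1 (0.56, 0.0313), and the adjusted p spanned 3.73e-05 to 0.341 across the alternatives. The knockdowns differed by -0.50 ± 0.23 (adjusted p = 0.132), and by -0.74 without mRNA knockdown library 1 (adjusted p = 0.0147, range 1.37e-04 to 0.361).

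Rorb (ENSMUSG00000036192.15, chr19:18930605-19111196, minus strand) encodes the nuclear receptor RORβ, known for its role in layer IV and the barrels of the somatosensory cortex. It was the lowest of the 8, at 5.95, 5.77 and 8.25 CPM in the circSlc45a4 knockdown, at 8.09, 7.34 and 7.98 CPM in the mRNA knockdown and 6.84, 8.78 and 9.85 CPM in scramble. All 3 groups overlapped. The log2 fold change was -0.36 ± 0.18 for the circSlc45a4 knockdown (95% interval -0.74 to 0.03; adjusted p = 0.161) and -0.13 ± 0.18 for the mRNA knockdown (95% interval -0.51 to 0.26; adjusted p = 0.667), both against scramble. Without circSlc45a4 knockdown library 3 the first of these was called (-0.54, adjusted p = 0.0464, range 0.0464 to 0.681). The knockdowns differed by -0.23 ± 0.18 (adjusted p = 0.384).

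Per kilobase of exon, the order of the 8 genes differed between the groups. In the circSlc45a4 knockdown Pou3f3 led with 63.4 CPM per kb, then came Limch1 (45.5) and Pou3f2 (39.4), whose ranges overlapped, and then Cux2 (8.58), Cux1 (8.24) and Pou3f1 (7.15), which overlapped in turn. In the mRNA knockdown the order was Pou3f3 (120.5 CPM per kb), Pou3f2 (52.0), Limch1 (26.6), and then Cux2 (17.1), Pou3f1 (12.9) and Cux1 (9.18), with overlap between neighbours among these last 3. In scramble it was Pou3f3 (137.5 CPM per kb), Pou3f2 (47.8), Cux2 (28.9), then Pou3f1 (22.3) and Limch1 (21.1), which overlapped, and Cux1 (11.2). Mef2c and Rorb closed the order in every group, at 2.23 CPM per kb for Mef2c and 0.601 for Rorb in the circSlc45a4 knockdown, 3.17 and 0.704 in the mRNA knockdown and 1.54 and 0.766 in scramble. Limch1 thus stood above Cux2 per length in every library of both knockdowns and below it in every scramble library.

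Other genes known from upper-layer neurons did not share a direction. Of 19 listed genes, 16 were tested and Cartpt had no read in any library. In the circSlc45a4 knockdown against scramble 4 rose and 2 fell, with a median log2 fold change of -0.02, against 27.1% of all genes called. In the mRNA knockdown 4 rose and 4 fell, with a median of -0.19, against 18.0% of all genes, and between the knockdowns the circSlc45a4 knockdown had 4 higher and 1 lower, with a median of 0.16, against 26.1% of all genes. With the Xist covariate 3 were called in the circSlc45a4 knockdown, against 1174 of all 17760 genes tested. That setting gave 4 in the mRNA knockdown, against 704 of all genes, and 3 between the knockdowns, against 4281. Without scramble library 2 there were 5 calls in the mRNA knockdown, against 1760 of 18283 genes. Between the knockdowns there were 2 without circSlc45a4 knockdown library 1 (3059 of 18227 genes) and 3 without mRNA knockdown library 3 (3830 of 18258 genes).

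**Figure D4:**
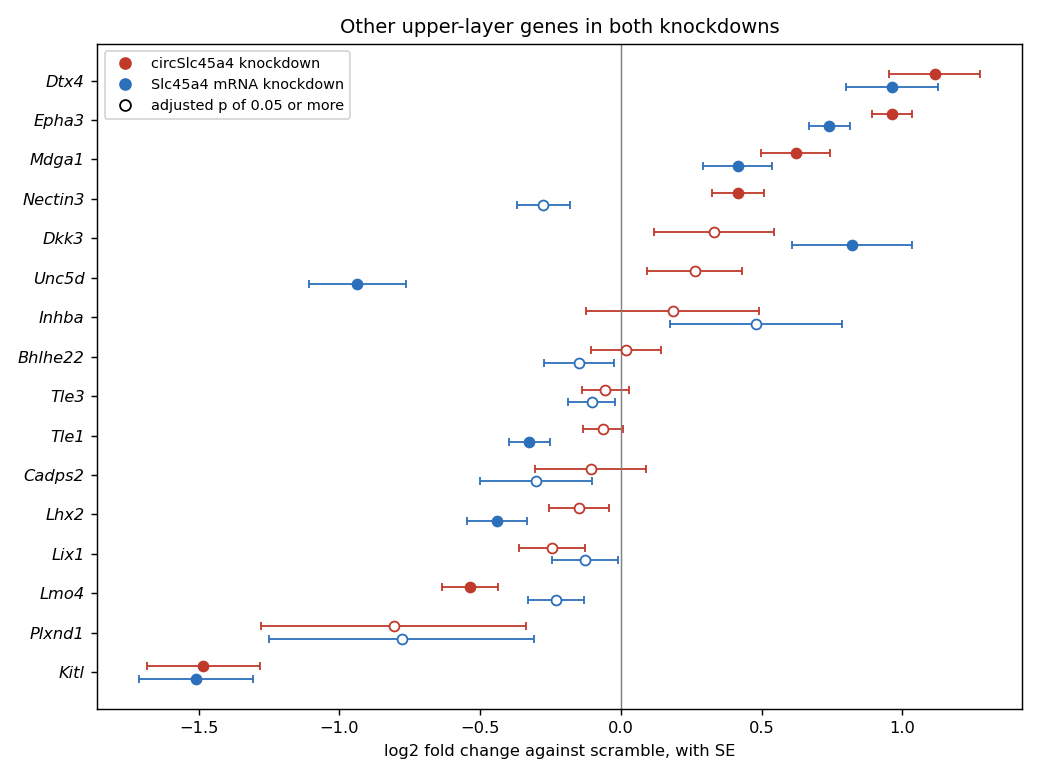
Log2 fold changes against scramble, with SE, of the 16 tested upper-layer genes outside the 8, in the circSlc45a4 knockdown and the mRNA knockdown. Dtx4 and Epha3 lie above 0 and Kitl lies below 0 in both, while Unc5d is lower in the mRNA knockdown (-0.94) and near 0.26 in the circSlc45a4 knockdown.

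Epha3, an ephrin receptor of growing axons, and Dtx4, a Deltex ubiquitin ligase gene, rose in both knockdowns. Epha3 was read at 301 to 330 CPM in the circSlc45a4 knockdown, 260 to 273 CPM in the mRNA knockdown and 153 to 164 CPM in scramble. Its log2 fold change against scramble was 0.96 ± 0.07 in the circSlc45a4 knockdown (adjusted p = 1.68e-06) and 0.74 ± 0.07 in the mRNA knockdown (adjusted p = 2.47e-05). Dtx4 gave 1.12 ± 0.16 in the circSlc45a4 knockdown (adjusted p = 2.48e-04) and 0.96 ± 0.16 in the mRNA knockdown (adjusted p = 0.00129). Kitl, the ligand of the Kit receptor, was read at 6.26 to 9.88 CPM in the circSlc45a4 knockdown, 6.82 to 11.2 CPM in the mRNA knockdown and 21.9 to 25.9 CPM in scramble. It fell by 1.48 ± 0.20 on the log2 scale in the circSlc45a4 knockdown (adjusted p = 1.45e-04) and by 1.51 ± 0.20 in the mRNA knockdown (adjusted p = 2.51e-04). These 6 calls held under every alternative.

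Further calls in this list were smaller or changed with the setting. Nectin3, a cell adhesion gene, rose in the circSlc45a4 knockdown (0.41 ± 0.09, adjusted p = 0.00479), Mdga1, an adhesion gene of migrating upper-layer neurons, rose there too (0.62 ± 0.12, adjusted p = 0.00233), and the LIM-only transcription cofactor gene Lmo4 fell (-0.54 ± 0.10, adjusted p = 0.00148). Each of these 3 calls was lost with the Xist covariate. The log2 fold change under that covariate was 0.55 for Nectin3, 0.69 for Mdga1 and -0.51 for Lmo4. The adjusted p there was 0.0622 for Nectin3 (range over the alternatives 3.19e-04 to 0.0622), 0.0834 for Mdga1 (2.31e-09 to 0.0834) and 0.121 for Lmo4 (1.16e-05 to 0.121). In the mRNA knockdown Mdga1 gave 0.41 ± 0.12 (adjusted p = 0.0335, range 2.74e-04 to 0.206). That call was lost without circSlc45a4 knockdown library 2, mRNA knockdown library 2 or 3, or any scramble library (0.31 to 0.45, adjusted p = 0.0569 to 0.127). It was also lost with the Xist covariate (0.47, adjusted p = 0.206). Tle1, a Groucho corepressor gene, fell in the mRNA knockdown (-0.33 ± 0.07, adjusted p = 0.00739; 0.298 with the Xist covariate, range 3.74e-04 to 0.298). Lhx2, a LIM homeodomain factor of cortical progenitors and upper layers, fell there too (-0.44 ± 0.11, adjusted p = 0.0122). The Lhx2 call was lost with the Xist covariate (-0.34, adjusted p = 0.303, range 5.02e-05 to 0.303) and without scramble library 1 (-0.35, 0.0585) or 2 (-0.44, 0.0504). Unc5d, a netrin receptor gene of the subventricular zone and upper layers, was read at 296 to 367 CPM in the circSlc45a4 knockdown, 105 to 177 CPM in the mRNA knockdown and 225 to 329 CPM in scramble. It fell in the mRNA knockdown (-0.94 ± 0.17, adjusted p = 0.00231; -0.66 and 0.168 with the Xist covariate, range 1.25e-20 to 0.168) and was higher in the circSlc45a4 knockdown than in the mRNA knockdown (1.20 ± 0.17, adjusted p = 2.96e-04), a direction opposite to that of Cux2 and Pou3f3. The remaining call of the list in the mRNA knockdown was Dkk3 (0.82 ± 0.21, adjusted p = 0.0176, range 3.08e-05 to 0.0800), named after its values were seen. It was lost without mRNA knockdown library 3 (0.58, 0.0800) or scramble library 2 (0.87, 0.0526) or 3 (0.65, 0.0682).

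Among 20 listed paralogs of the 8 genes, 13 were tested. Against scramble, 4 rose and 2 fell in the circSlc45a4 knockdown (median -0.08) and 2 rose and 3 fell in the mRNA knockdown (median -0.21), and 3 were higher and 1 lower between the knockdowns (median 0.19). Of all genes tested, 27.1% were called in the circSlc45a4 knockdown, 18.0% in the mRNA knockdown and 26.1% between them. Pou3f4, described above, was the only paralog lower between the knockdowns. Lmo7, a LIM and calponin homology gene related to Limch1, rose by 0.77 ± 0.14 in the circSlc45a4 knockdown (adjusted p = 0.00120, range over the alternatives 9.11e-07 to 0.0603) and by 0.64 ± 0.14 in the mRNA knockdown (adjusted p = 0.00617, range 1.10e-04 to 0.0838). Both Lmo7 calls were lost under the Xist covariate, at log2 fold changes of 0.83 in the circSlc45a4 knockdown and 0.69 in the mRNA knockdown. Mef2a, a paralog of Mef2c, fell by 0.31 ± 0.09 in the mRNA knockdown (adjusted p = 0.0260) where Mef2c rose, a call lost with the Xist covariate (-0.28, adjusted p = 0.340, range 0.00772 to 0.340). It was also lost without mRNA knockdown library 1 or 2 (-0.30 each, 0.0526 and 0.0675) or scramble library 1, 2 or 3 (-0.29, -0.33 and -0.32, with 0.0802, 0.0699 and 0.0639). Mef2d gave -0.08 in the circSlc45a4 knockdown and -0.02 in the mRNA knockdown, neither called. Satb1 (0.26) and Pou2f1 (0.37) rose and Pou6f1 (-0.34) fell in the circSlc45a4 knockdown, and in the mRNA knockdown Pou2f1 (0.47) rose and Onecut2 (-0.59) and Rora (-0.86) fell, all on the log2 scale. These calls had adjusted p of 0.0135 to 0.0424, were lost with the Xist covariate (0.199 to 0.746) and each was lost without at least 1 single library. Mef2b, called higher in the circSlc45a4 knockdown than in scramble (adjusted p = 0.0103), had 0.402 to 0.492 CPM in the circSlc45a4 knockdown and 0 to 0.0972 CPM in scramble, from 55 reads in the circSlc45a4 knockdown and 5 in scramble. With the Xist covariate it was not called (log2 fold change 3.28, against 2.84 without it, adjusted p = 0.188, range 0.00987 to 0.188). Between the knockdowns Satb1 (0.35, adjusted p = 0.00418) and Mef2a (0.42, 0.00346) were higher in the circSlc45a4 knockdown. Mef2b was called higher there too (2.09), from 55 reads against 11 in the mRNA knockdown. The Mef2b call was lost without the filter on low counts (edgeR adjusted p = 0.0840). It was also lost without any 1 of the knockdown libraries (adjusted p = 0.0583 to 0.121). Rora, the paralog of Rorb, was read at 2.01 to 2.41 CPM in the circSlc45a4 knockdown, 1.26 to 1.65 CPM in the mRNA knockdown and 2.10 to 3.24 CPM in scramble.

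A further list held 7 genes that work with the Pou3f factors or are known targets. In the circSlc45a4 knockdown Sox2, the partner of POU factors in neural progenitors, rose to 72.3 to 92.5 CPM, against 33.9 to 48.1 CPM in scramble (0.98 ± 0.18, adjusted p = 0.00131; 0.136 with the Xist covariate, range 1.26e-18 to 0.136). Nes, whose neural enhancer is bound by POU and Sox factors, gave 0.43 ± 0.13 (adjusted p = 0.0305) and Sox11 gave -0.28 ± 0.08 (adjusted p = 0.0204). The Nes call was lost with upper-quartile scaling (0.37, adjusted p = 0.0535), without any 1 of the circSlc45a4 knockdown libraries and without scramble library 1 or 2 (0.28 to 0.49, adjusted p = 0.0513 to 0.110). The Sox11 call was lost without circSlc45a4 knockdown library 1 or 2 or scramble library 1 (-0.26 to -0.21, adjusted p = 0.0715 to 0.0976) and with the Xist covariate (0.278). The direction of Sox2 and Nes was thus opposite to that of Pou3f1 and Pou3f3 in the same libraries. In the mRNA knockdown the 7 log2 fold changes ran from -0.27 for Nes to 0.30 for Dll1, a Notch ligand gene, with adjusted p of 0.116 to 0.879 (edgeR quasi-likelihood test). Between the knockdowns Sox2 (0.78, adjusted p = 0.00603) and Nes (0.70, 0.00219) were higher in the circSlc45a4 knockdown.

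Markers of other cell types moved with the groups. The counts of called markers stand against 27.1% of all genes called in the circSlc45a4 knockdown (14.1% higher, 13.0% lower) and 18.0% in the mRNA knockdown (8.92% higher, 9.09% lower). Of 15 apical progenitor markers 11 rose in the circSlc45a4 knockdown and 7 in the mRNA knockdown, and none fell. Their summed level was 2154 to 2294 CPM in the circSlc45a4 knockdown, 1157 to 1474 CPM in the mRNA knockdown and 1021 to 1301 CPM in scramble. Of 11 basal progenitor markers 8 fell in the circSlc45a4 knockdown and 3 in the mRNA knockdown, with sums of 1468 to 1711 CPM in the circSlc45a4 knockdown, 1856 to 1945 CPM in the mRNA knockdown and 1973 to 2131 CPM in scramble. Of 15 deep-layer markers 9 rose and 2 fell in the circSlc45a4 knockdown and 3 rose and 1 fell in the mRNA knockdown, with sums of 3127 to 3392 CPM in the circSlc45a4 knockdown, 2386 to 2712 CPM in the mRNA knockdown and 2641 to 2807 CPM in scramble. Of 12 markers of newborn projection neurons 1 rose and 3 fell in each knockdown, with sums of 7058 to 7865 CPM in the circSlc45a4 knockdown, 6148 to 7386 CPM in the mRNA knockdown and 7617 to 9178 CPM in scramble. Of 7 tested subplate markers 5 rose in the circSlc45a4 knockdown, and 2 rose and 1 fell in the mRNA knockdown. All 8 listed subplate genes summed to 94.4 to 122 CPM in the circSlc45a4 knockdown, 56.6 to 65.6 CPM in the mRNA knockdown and 52.5 to 57.0 CPM in scramble. The 7 Cajal-Retzius markers summed to 117 to 363 CPM in the circSlc45a4 knockdown, 25.5 to 55.1 CPM in the mRNA knockdown and 50.2 to 101 CPM in scramble, with 2 higher and 1 lower of 6 tested in the circSlc45a4 knockdown against scramble. Every library of the circSlc45a4 knockdown lay above every other library in this sum. Reln (70.2 to 244 CPM) and Nhlh2 (43.4 to 114 CPM) made up most of the sum there. Ebf3 went the other way (mean 2.28 CPM there and 10.2 CPM in scramble), and Trp73 hardly differed (0.460 and 0.456 CPM). Microglial markers summed to 6.80 to 11.8 CPM in the circSlc45a4 knockdown, 3.40 to 8.50 CPM in the mRNA knockdown and 2.41 to 4.16 CPM in scramble, with 2 higher of 7 tested in the circSlc45a4 knockdown, whose sums lay above those of scramble without overlap. Markers of ventral inhibitory neurons summed to 34.2 to 47.1 CPM in the circSlc45a4 knockdown, 23.5 to 32.5 CPM in the mRNA knockdown and 18.7 to 37.4 CPM in scramble. Erythroid markers summed to 9.01 to 25.6 CPM in the circSlc45a4 knockdown, 6.39 to 6.59 CPM in the mRNA knockdown and 9.20 to 14.8 CPM in scramble. Endothelial markers summed to 0.604 to 1.54 CPM in the circSlc45a4 knockdown, 0.949 to 1.25 CPM in the mRNA knockdown and 1.56 to 4.51 CPM in scramble. Oligodendrocyte precursor markers summed to 1.83 to 2.46 CPM in the circSlc45a4 knockdown, 1.19 to 2.79 CPM in the mRNA knockdown and 0.583 to 1.39 CPM in scramble, with 1 higher of 2 tested in each knockdown. Olig2 averaged 1.42 CPM in the circSlc45a4 knockdown, 0.878 CPM in the mRNA knockdown and 0.222 CPM in scramble. Cspg4, the other tested gene, did not follow it (0.559, 0.773 and 0.616 CPM in the same order). Pericyte and meningeal markers summed to at most 6.65 CPM in any library. The calls of these markers were not followed under the Xist covariate or the other alternatives. The part of these cell types in the changes of the 8 genes was not tested.

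Across the 9 libraries, log2 CPM of Cux2 ran closely with that of Pou3f1 (Pearson's r = 0.937) and Pou3f3 (0.929), and against that of Limch1 (-0.864). Pou3f1 and Pou3f3 had r = 0.931, and Cux1 and Pou3f1 0.904. These values describe 9 libraries that share their 3 groups, so they restate in part the group differences above, and no p is given. Among 9760 genes whose mean CPM had a log2 of at least 3, those most like Cux2 were Mn1 (0.989), Suds3 (0.988) and Drosha (0.984). Those most like Pou3f3 were Rps6ka2 (0.992), Thtpa (0.992) and G6pdx (0.988), and those most like Pou3f1 were Frat1 (0.992), Ank (0.991) and Sbk1 (0.988). Pou3f2 ran with Cttnbp2 (0.977), Gsk3b (0.952) and Rapgef5 (0.949), and Cux1 with Cnst (0.967), Vps26b (0.963) and Ttll1 (0.958). Limch1 ran with Palmd (0.986), Mmd2 (0.984) and Ppfia2 (0.983), and Mef2c with Clstn2 (0.982), Tmtc1 (0.969) and Enc1 (0.964). For Rorb, the gene with the fewest reads, the closest were Adgra3 (0.896), Alms1-ps2 (0.894) and E2f2 (0.888).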

How the data were processed

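RNA from GFP+ cells was sequenced in 9 libraries, 3 per group. The authors deposited whole-number read counts per gene ID, not normalized, and all columns were used. Per the submitters' processing notes, bcl2fastq 2.17.1.14, STAR 2.4.2a and DESeq2 were used with build mm10; the counting program, annotation and strand setting are unstated in the sources used here. IDs were joined without their version to GENCODE M21 (GRCm38): 53274 of 53379 had a symbol. Promoter sequences are RefSeq's (GRCm38.p6), and coding windows come from the GENCODE M21 transcripts. Genes were kept by filterByExpr (minimum count 10) of edgeR 4.0.16 in R 4.3.3, and libraries were scaled by TMM. CPM is each count over the scaled total. All 9 libraries entered 1 quasi-likelihood fit of the 3 group means, with 6 residual degrees of freedom and a common biological coefficient of variation of 13.9%. Benjamini-Hochberg adjusted p under 0.05 over 17760 genes is a call. SE is the log2 fold change over the root of F, and intervals are at 95%. A count of 0 allows up to 3 counts (0.0671 to 0.143 CPM, by depth); as reads carry no molecular identifiers, this covers counting error only. Exon length is that of all merged exons, so levels per kb understate genes that use few of them. Paralog ratios were compared over libraries with an exact 2-sided permutation test.

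The 8 genes and the 15 lists beside them (173 symbols in all) were chosen with earlier results of these data known. The text names the 8 genes, the called genes of the paralog and partner lists, up to 6 called upper-layer genes by smallest p per comparison with scramble, Dkk3, overlapping genes, and for each of the 8 the 3 genes of highest Pearson's r. Some genes of these lists are not reported here. Alternatives were RLE and upper-quartile scaling, limma-voom (limma 3.58.1), the DESeq2 1.42.0 Wald test, no filter, a minimum of 1 CPM in 3 libraries, a replicate block, log2 Xist CPM as a covariate, the 6 libraries compared alone, and leaving out each library.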

Additional observations from a re-analysis of the deposited data

How the results depend on the processing

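With the Xist covariate 1174 genes were called for the circSlc45a4 knockdown against scramble (4814 without it) and 704 for the mRNA knockdown (3200 without it). That setting also ended the calls of Cux1 (-0.17, adjusted p = 0.722) and Pou3f1 (-1.33, 0.0578) in the circSlc45a4 knockdown and of Cux2 (-0.56, 0.275) and Pou3f1 (-0.56, 0.419) in the mRNA knockdown; the cause was not tested. Of the 8 genes it left 3 called in the circSlc45a4 knockdown and 1 in the mRNA knockdown. Without a filter on low counts, calls were added for Pou3f2 (-0.28, adjusted p = 0.0211) and Mef2c (0.55, 3.73e-05) in the circSlc45a4 knockdown. In the mRNA knockdown they were added for Cux1 (-0.29, 0.0210) and Limch1 (0.33, 0.00453). That makes 5 of the 8 genes in the mRNA knockdown, against 3864 of the 29302 genes tested without the filter. Between the knockdowns calls were added for Pou3f2 (-0.40, 3.10e-04) and Mef2c (-0.50, 1.37e-04). Fitting only the 6 libraries compared added Mef2c in the circSlc45a4 knockdown (0.55, 0.0458) and Pou3f2 between the knockdowns (-0.40, 0.0307). Pou3f2 was also called there with upper-quartile factors (-0.45, 0.0327), limma-voom (-0.41, 0.0445) and DESeq2 (-0.39, 0.0312).

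Replicate numbers did not pair the libraries of either knockdown with those of scramble. Correlations of same-numbered deviations from group means ranged from -0.122 to 0.034 (circSlc45a4 knockdown and scramble) and from -0.141 to 0.022 (mRNA knockdown and scramble). Between the knockdowns they were small but all positive (0.081 to 0.115), while those of differently numbered libraries were all negative (-0.071 to -0.028). With a replicate block 4412 genes were called for the circSlc45a4 knockdown, 2713 for the mRNA knockdown and 4189 between them, and Cux1 in the circSlc45a4 knockdown was not (-0.45, adjusted p = 0.0517).

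Leaving out single libraries gave 3386 to 5548 called genes for the circSlc45a4 knockdown, 1760 to 3083 for the mRNA knockdown (1760 without scramble library 2) and 3059 to 4610 between them (3059 without circSlc45a4 knockdown library 1). In the circSlc45a4 knockdown against scramble, Cux1 ranged from -0.56 to -0.34, Rorb from -0.54 to -0.24 and Mef2c from 0.35 to 0.86. In the mRNA knockdown against scramble, Pou3f1 ranged from -0.96 to -0.55, Limch1 from 0.17 to 0.48, called without scramble library 1, and Pou3f2 from -0.01 to 0.30, with its sign turned without scramble library 3 (-0.0091, adjusted p = 0.977). Among values that were not called, Pou3f2 in the circSlc45a4 knockdown ranged from -0.42 to -0.10, Pou3f3 in the mRNA knockdown from -0.29 to -0.07, Cux1 there from -0.41 to -0.16 and Rorb there from -0.26 to -0.01. Between the knockdowns, Pou3f1 ranged from -1.09 to -0.69, Pou3f2 from -0.55 to -0.31, Mef2c from -0.74 to -0.36, Cux1 from -0.27 to -0.04 and Rorb from -0.41 to -0.13.

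With upper-quartile factors 42.3% of the calls in the circSlc45a4 knockdown against scramble were higher, against 52.1% with TMM. The number of libraries, 3 per group, limits the precision, and depth limits Mef2b, with 5 reads in scramble.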
